A study of Mus musculus with 6 samples.

Results

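Nuclear receptor coregulators were read in quadriceps, a thigh muscle, of C57BL/6 mice aged 20 weeks. The set held 9 genes picked by symbol: the corepressor genes Ncor1 and Nrip1, the p160 coactivator genes Ncoa1, Ncoa2 and Ncoa3, the acetyltransferase genes Crebbp and Ep300, and the coactivator genes Ncoa6 and Med1. All 9 were found, each as 1 of the 37477 Ensembl genes of the table, and all 9 were among the 13848 genes that passed the filter on low counts. MERKO mice, a muscle-specific knockout of the estrogen receptor alpha gene (KO), were compared with wild-type mice (WT), with 3 libraries in each group. The sources used here name neither the Cre driver nor the deleted exons. They also do not say that the libraries are separate animals, so that p-values reflect only how these libraries vary, which may be technical.

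A nuclear receptor bound to its hormone does not switch a gene on by itself. It exchanges corepressors, which bring histone deacetylases to the gene, for coactivators, which bring histone acetyltransferases and the Mediator complex that contacts RNA polymerase II. Estrogen receptor alpha uses the p160 proteins and the acetyltransferases CBP and p300 in this way. In mouse skeletal muscle NCoR1 and RIP140, the product of Nrip1, are known as brakes on genes of oxidative metabolism, and receptors other than estrogen receptor alpha use the same coregulators.

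The estrogen receptor gene itself, Esr1, had 22, 16 and 16 counts in KO replicates 1, 2 and 3, against 50, 41 and 44 counts in WT replicates 1, 2 and 3, with all KO libraries below all WT libraries. Its log2 difference was -1.45 ± 0.23 (SE), with an adjusted p of 0.145 in edgeR's quasi-likelihood test, so the targeted gene itself did not pass an adjusted p of 0.05. With no filter beyond 1 read its adjusted p was 0.000142 in edgeR, and in the authors' deposited table it was 0.000152. Esr1 did not pass in any other alternative fit. Its adjusted p was 0.103 in DESeq2, 0.187 in limma voom, and 0.0903 to 0.822 in edgeR with 1 library left out. Total counts ran from 7809612 to 8560244 in KO libraries and from 7388365 to 7733401 in WT libraries. Levels are given as CPM, the counts of a gene relative to the scaled library total, with scaling between libraries by the trimmed mean of M values (TMM). Summed over a list of 10 muscle fibre markers, libraries held 196800 to 214400 CPM in KO and 207100 to 245100 CPM in WT, and none of the 10 was at 0. Markers of other cells were present at lower levels in both genotypes. The 6 endothelial markers summed to 209 to 248 CPM in KO and 229 to 259 CPM in WT, the 6 macrophage markers to 113 to 132 CPM in KO and 96.7 to 127 CPM in WT, and the 6 adipocyte markers to 281 to 319 CPM in KO and 260.1 to 343 CPM in WT. The 5 fibroblast markers summed to 603 to 665 CPM in KO and 559 to 749 CPM in WT, and the 4 satellite cell markers to 7.49 to 9.47 CPM in KO and 5.61 to 7.77 CPM in WT. The ranges overlapped for each of these lists, and the part of cell makeup in the results was not tested. In whole tissue, fewer cells of a type and less RNA per cell cannot be told apart.

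Promoter sequences were looked at first because these genes encode partners of a receptor that itself binds DNA. RefSeq (build GRCm38.p6) gave 9 promoters, each from 250 bases before to 50 bases after a start position, for 7 of the genes: Ncor1 and Nrip1 with 2 each, and Ncoa1, Ncoa6, Med1, Crebbp and Ep300. Not all of these starts are the start of the gene. The Ncoa6 promoter (chr2:155440784-155441033) and the Ncor1 promoter at chr11:62438516-62438765 lie well inside the gene spans given below. Their bases are 38.4% and 36.8% G or C, with no GC box (GGGCGG). Nearer the gene start, but also inside the spans, lie the Med1, Crebbp and Ep300 promoters and the second Ncor1 promoter. So does the Nrip1 promoter at chr16:76373050-76373299. Annotated exons overlap the promoters of Med1, Crebbp, Ep300 and Ncoa6 and the second of Ncor1. Only the Ncoa1 promoter and the Nrip1 promoter at chr16:76373828-76374077 lie outside the spans. The palindromic estrogen response element GGTCANNNTGACC, whose arms are the same motif on opposite strands, was in 0 of these 9 and in 23 of the 32851 mouse promoters in the table (0.07001%). A lone arm, GGTCA on either strand, which the full element also contains, was in 2 of the 9, one for Nrip1 and one for Ncoa6, and in 40.5% of all promoters. The arm of Ncoa6 is not among the 250 bases before its start position. The GC box GGGCGG on either strand was in 6 of the 9 and in 35.7% of all promoters. Of these 6, only the Ncoa1 promoter lies outside the gene span. A pair of promoters is printed to show the matched letters of each motif, as the 250 bases before the gene start, 5′ to 3′ on the strand of the gene. Nrip1 (chr16:76373828-76374077, minus strand) has the GGTCA arm in capitals and no GC box, and its bases are 51.2% G or C. The other Nrip1 promoter (chr16:76373050-76373299, minus strand), not printed, goes the other way, with 2 GC boxes, no GGTCA and 73.6% G or C. Ncoa1 (chr12:4477183-4477432, minus strand) has 7 GC boxes in capitals and no GGTCA, and its bases are 85.6% G or C. A match is a description of letters, not a binding site.
Nrip1: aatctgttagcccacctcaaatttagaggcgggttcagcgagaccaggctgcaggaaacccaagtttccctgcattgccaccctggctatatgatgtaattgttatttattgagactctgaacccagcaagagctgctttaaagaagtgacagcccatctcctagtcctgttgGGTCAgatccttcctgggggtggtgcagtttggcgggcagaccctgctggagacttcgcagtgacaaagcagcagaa
Ncoa1: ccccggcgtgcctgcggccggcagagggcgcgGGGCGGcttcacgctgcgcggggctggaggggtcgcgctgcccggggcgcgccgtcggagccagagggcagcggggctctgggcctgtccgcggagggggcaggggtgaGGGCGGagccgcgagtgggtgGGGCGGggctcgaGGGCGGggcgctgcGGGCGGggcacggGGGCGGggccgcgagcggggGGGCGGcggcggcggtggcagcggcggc

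Per length of exon, Ncor1 was by far the most abundant of the 9 coregulator transcripts in this muscle and Ncoa6 the least. Over all 6 libraries Ncor1 averaged 10.4 ± 0.862 CPM per kb of exon (SD over 6 libraries of both genotypes), 2.62 times the next gene, Med1, at 3.98 ± 0.386 CPM per kb. Ncor1 stood above 78.8% of the 13220 tested genes with an annotated length, on this scale. Ncoa3 followed with 3.24 ± 0.443 CPM per kb, then Crebbp with 2.24 ± 0.234, Nrip1 with 2.14 ± 0.224 and Ncoa1 with 2.01 ± 0.150 CPM per kb. The lower end held Ncoa2 with 1.72 ± 0.0936, Ep300 with 1.26 ± 0.0620 and Ncoa6 with 0.918 ± 0.166 CPM per kb, and Ncoa6 stood above 18.1% of tested genes. Neighbours in this order whose 6 libraries overlapped were Med1 and Ncoa3, Crebbp and Nrip1, and Nrip1 and Ncoa1. Ncor1 and Med1, Ncoa3 and Crebbp, Ncoa1 and Ncoa2, Ncoa2 and Ep300, and Ep300 and Ncoa6 did not overlap, though 2 of these gaps were narrow: the lowest Ncoa1 library (1.89) was barely above the highest Ncoa2 library (1.88 CPM per kb), and the lowest Ep300 library and the highest Ncoa6 library were both at 1.17 CPM per kb. The middle of this order depends on the length used. The annotated exons of Ncoa2 add up to 15.6 kb but its longest transcript to 8.17 kb. Per kb of longest transcript Ncoa2 averaged 3.29 CPM, just below Ncoa3 (3.39) and above all but Ncor1 (14.8), Med1 (4.34) and Ncoa3. On that length Nrip1 (3.11) also came above Crebbp (2.80), the reverse of their order per kb of exon.

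**Figure D1:**
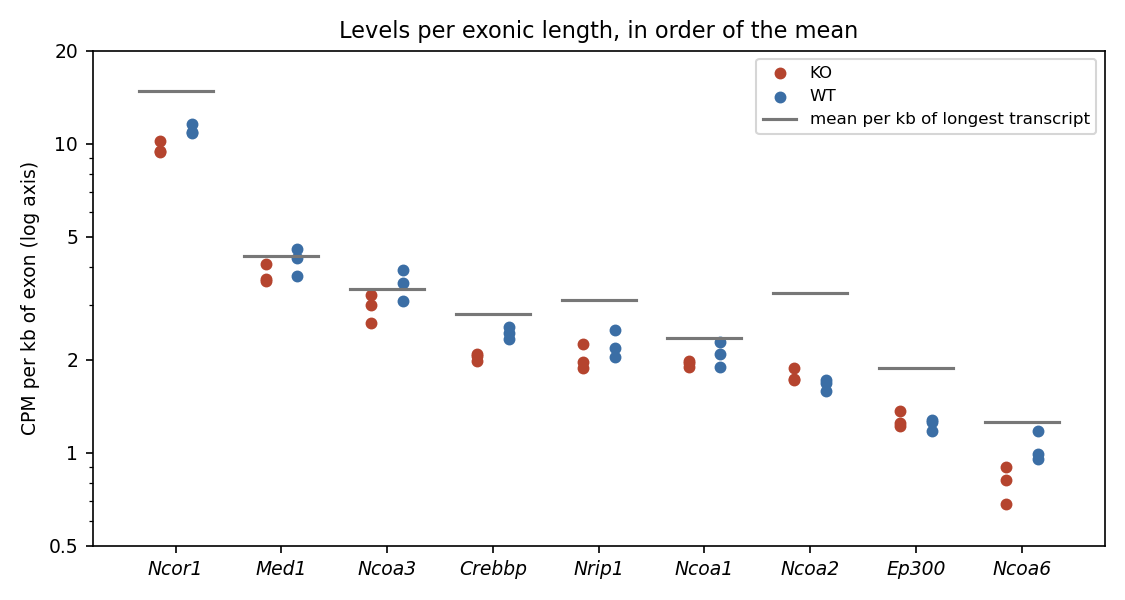
Levels of the 9 coregulator genes in CPM per kb of exon on a log axis, with 1 point per library (KO left, WT right) and a grey line for the mean per kb of the longest transcript. Ncor1 averages 10.4 CPM per kb of exon and no other gene exceeds 4.56 in any library.

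Between genotypes, 7 of the 9 genes were lower in KO and 2 were higher, by small amounts, and no gene passed the test. The log2 differences, KO minus WT, ran from -0.38 for Ncoa6 to 0.10 for Ncoa2, with a median of -0.15; the median of all 13848 genes tested was -0.0024, and 50.7% of them were below 0. In edgeR's quasi-likelihood test with Benjamini-Hochberg adjustment over all genes, 0 of the 9 passed an adjusted p of 0.05 (0.989 to 0.993), and 0 of 13848 genes passed (0%). Before adjustment 590 genes had a p under 0.05, and DESeq2 called 2 genes and limma voom 1, none of them among the 9. Of the 9 genes, 4 had an unadjusted p under 0.05, all lower in KO, where 2.27% of all genes did so in that direction. That count depended on the fit: it was 0 in DESeq2, where these 4 genes had unadjusted p-values of 0.0522 to 0.128, and 1, Crebbp, both with the exonic-length offsets described below and without KO replicate 3. In the authors' deposited comparison only Crebbp and Ncoa6 of the 9 had an unadjusted p under 0.05. All KO libraries lay below all WT libraries for 3 of the 9, Ncor1, Crebbp and Ncoa6, where 5.45% of all genes did so. All KO libraries lay above all WT libraries for 1, Ncoa2, where 4.96% of all genes did so. The 9 genes were chosen with earlier results of these data known, so these counts are a description. Every 95% interval lay within a fold of 0.605 to 1.23 of the WT level.

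These are long transcripts, and long transcripts were in general slightly lower in KO. Exons of the 9 genes add up to 7895 to 15642 bases each, against a median of 4184 over the genes tested. Across 13220 genes, which are not independent replicates, log2 difference and exonic length had a Spearman correlation of -0.186. The 2348 tested genes with at least 7895 exonic bases had a median log2 difference of -0.05, 66.1% of them were below 0, 10.4% had all KO libraries below all WT libraries, and 2.17% had all KO above all WT. With offsets that remove the trend on length from each library, the median of the 9 genes was -0.11 in place of -0.15, and the same 7 genes were below 0. What length stands for in these libraries was not tested.

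**Figure D2:**
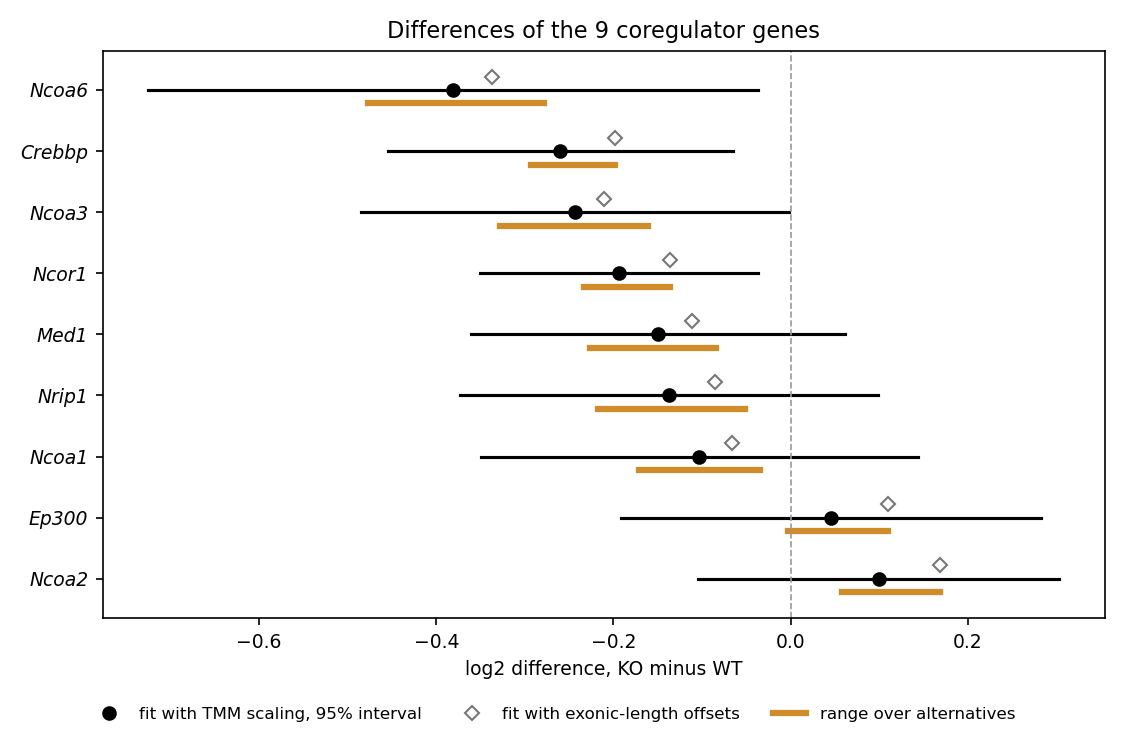
Log2 difference of each coregulator gene, KO minus WT, with its 95% interval (black), the value with exonic-length offsets (open diamonds) and the range over 16 alternatives of processing and left-out libraries (orange). Values run from -0.38 for Ncoa6 to 0.10 for Ncoa2; the orange range of Ep300 alone crosses 0.

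Ncor1 (ENSMUSG00000018501, chr11:62316426-62458541, minus strand, mm10) encodes the scaffold that holds histone deacetylase 3 on receptors without hormone. It had 1109, 1008 and 973 counts in KO replicates 1, 2 and 3, against 1110, 1023 and 1094 counts in WT replicates 1, 2 and 3. Scaled, these were 131, 122 and 120.5 CPM in KO libraries and 149, 139.9 and 139 CPM in WT libraries. The raw counts overlapped and the scaled levels did not, since KO libraries held more counts in total. Means were 124.5 ± 5.87 CPM in KO and 142 ± 5.46 CPM in WT (SD, n = 3 each). The log2 difference was -0.19 ± 0.07 (SE), with a 95% interval from -0.35 to -0.04 and, in edgeR's quasi-likelihood test, p-values of 0.0183 before and 0.989 after adjustment. With length offsets it was -0.14, and over 16 alternatives it ran from -0.23 to -0.14.

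Nrip1 (ENSMUSG00000048490, chr16:76287400-76373827, minus strand, mm10) encodes RIP140, which binds receptors that carry hormone and represses them. Its levels were 25.8, 22.6 and 21.5 CPM in KO replicates 1, 2 and 3, against 28.7, 25.02 and 23.3 CPM in WT replicates 1, 2 and 3. The groups overlapped, with KO replicate 1 above 2 of the WT libraries. The log2 difference was -0.14 ± 0.11 (SE), with a 95% interval from -0.37 to 0.10 and an adjusted p of 0.993 in edgeR's test. The human gene is known to respond to estrogen in breast cancer cells. Here the interval reached from 0.772 to 1.07 of the WT level. Without WT replicate 1 the log2 difference was -0.05, and leaving out other libraries gave values down to -0.22.

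The p160 coactivators, which dock on the hormone-bound receptor and recruit acetyltransferases, did not differ in 1 direction. Ncoa3 (ENSMUSG00000027678, chr2:165992636-166073242, plus strand, mm10), also called SRC-3, had 23.8, 25.6 and 20.8 CPM in KO replicates 1, 2 and 3, against 24.4, 30.9 and 27.9 CPM in WT replicates 1, 2 and 3. KO replicate 2 was above WT replicate 1, so the groups overlapped. Its log2 difference was -0.24 ± 0.11 (SE), with p-values of 0.0483 before and 0.989 after adjustment in edgeR's test, and was -0.16 without WT replicate 2. Ncoa2 (ENSMUSG00000005886, chr1:13139105-13374083, minus strand, mm10), also called TIF2 or GRIP1, had 29.3, 27.2 and 26.9 CPM in KO replicates 1, 2 and 3, against 26.8, 26.3 and 24.8 CPM in WT replicates 1, 2 and 3. All 3 KO libraries lay above all 3 WT libraries, but the lowest KO and the highest WT library were nearly equal. Its log2 difference was 0.10 ± 0.10 (SE), with a 95% interval from -0.10 to 0.30 and an adjusted p of 0.993, and was 0.06 without KO replicate 1. Ncoa1 (ENSMUSG00000020647, chr12:4247362-4477182, minus strand, mm10), the founding member SRC-1, had 16.7, 17.04 and 16.2 CPM in KO replicates 1, 2 and 3, against 19.6, 17.9 and 16.2 CPM in WT replicates 1, 2 and 3. Its KO libraries lay close together at the low end of the WT range, and the log2 difference was -0.10 ± 0.12 (SE, adjusted p = 0.993 in edgeR's test), or -0.04 without WT replicate 1.

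The make-up of the p160 family can be read without any scaling between libraries, as each gene's share of the 3 genes' counts. These shares were formed after the values were seen and carry no test; exons differ in length, so a share compares libraries, not genes. Ncoa2 held 42.03%, 38.9% and 42.05% of p160 counts in KO replicates 1, 2 and 3, against 37.9%, 34.97% and 36.03% in WT replicates 1, 2 and 3. Each KO share was above each WT share, by 4.71 percentage points between the means. Ncoa3 held 34.4% ± 2.08 in KO and 38.7% ± 3.67 in WT, and Ncoa1 24.6% ± 0.758 in KO and 25.01% ± 2.29 in WT (SD, n = 3 each), and the groups overlapped for both. A library held only 516 to 590 p160 counts, so the exact 95% binomial interval of a share was wide. For Ncoa2 it ran from 38.01% to 46.1% in KO replicate 1 and from 33.7% to 42.2% in WT replicate 1, which covers counting error only. Counts of Ncor1 per p160 count averaged 1.84 ± 0.0801 in KO and 1.99 ± 0.121 in WT (SD, n = 3 each), and the groups overlapped.

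The acetyltransferases CBP and p300 are close paralogs with shared targets. Their log2 differences had opposite signs with all 6 libraries, but without KO replicate 1 that of Ep300 was -0.0031, and the difference between the genes was not tested. Crebbp (ENSMUSG00000022521, chr16:4081328-4213997, minus strand, mm10), which encodes CBP, had 238, 230 and 217 counts in KO replicates 1, 2 and 3, against 258, 242 and 249 counts in WT replicates 1, 2 and 3. Scaled, these were 28.2, 27.8 and 26.9 CPM in KO libraries and 34.6, 33.1 and 31.6 CPM in WT libraries, with no overlap before or after scaling. The log2 difference was -0.26 ± 0.09 (SE), with a 95% interval from -0.45 to -0.065, or 0.730 to 0.956 of the WT level. Its unadjusted p of 0.0120 in edgeR's test was the smallest of the 9 genes and ranked 120 among all genes; the adjusted p was 0.989. Ep300 (ENSMUSG00000055024, chr15:81585351-81652077, plus strand, mm10), which encodes p300, had 19.4, 17.8 and 17.5 CPM in KO replicates 1, 2 and 3, against 16.7, 18.2 and 18.0 CPM in WT replicates 1, 2 and 3. Its groups overlapped, and the log2 difference was 0.05 ± 0.11 (SE, adjusted p = 0.993 in edgeR's test).

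Of the counts of this pair, Crebbp held 59.2%, 61.01% and 60.6% in KO replicates 1, 2 and 3, against 67.4%, 64.5% and 63.7% in WT replicates 1, 2 and 3. Each KO share was below each WT share, by 4.92 percentage points between the means, and this too was formed after the values were seen and was not tested. With 358 to 402 counts per library, the exact 95% binomial interval ran from 54.2% to 64.05% in KO replicate 1 and from 62.4% to 72.04% in WT replicate 1. The ratio of Crebbp to Ep300 counts averaged 1.52 ± 0.0595 in KO and 1.88 ± 0.164 in WT (SD, n = 3 each).

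**Figure D3:**
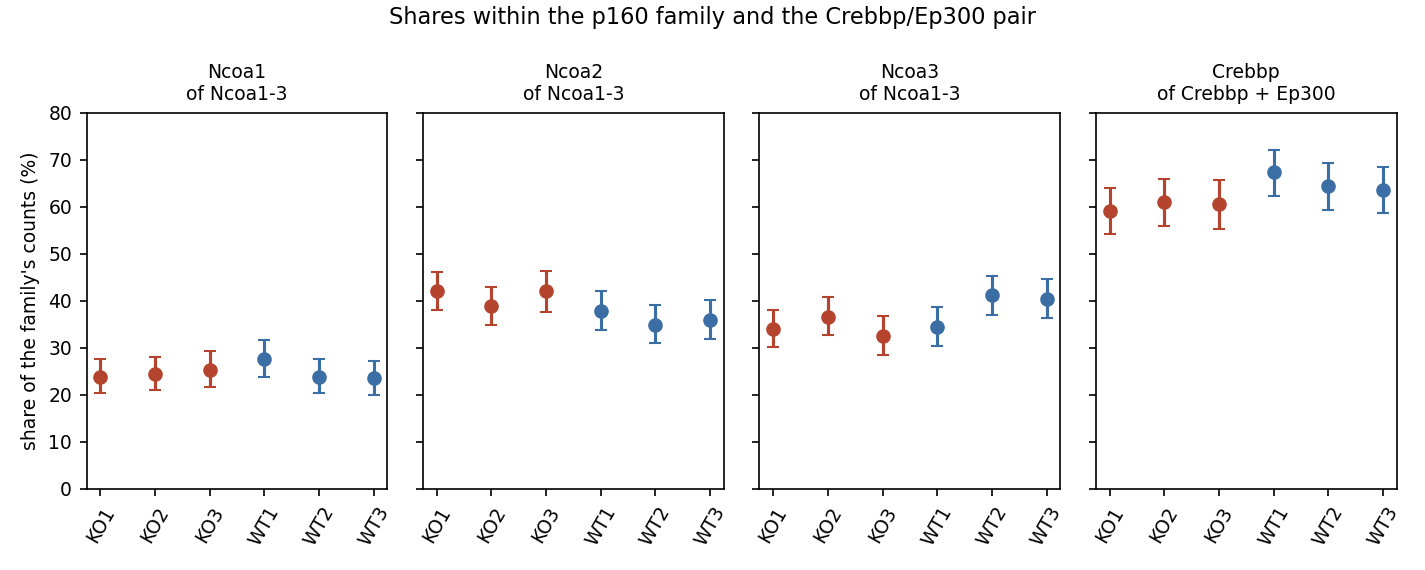
Share of the counts of the p160 family held by Ncoa1, Ncoa2 and Ncoa3, and share of Crebbp in the counts of Crebbp and Ep300, per library, with exact 95% binomial intervals. Each KO share is above each WT share for Ncoa2 and below each WT share for Crebbp, while for both genes the interval of every KO library overlaps that of every WT library.

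Ncoa6 (ENSMUSG00000038369, chr2:155390656-155473894, minus strand, mm10), a scaffold of histone methyltransferase complexes, had the fewest counts: 74, 55 and 64 in KO replicates 1, 2 and 3, against 72, 68 and 90 in WT replicates 1, 2 and 3. Scaled, these were 8.76, 6.65 and 7.92 CPM in KO libraries and 9.64, 9.30 and 11.4 CPM in WT libraries, which did not overlap, whereas the raw counts did. The log2 difference of -0.38 ± 0.16 (SE) was the most negative of the 9, with a 95% interval from -0.72 to -0.04, and p-values of 0.0322 before and 0.989 after adjustment in edgeR's test. Counting error alone gives a gene of 70.5 counts a coefficient of variation of 11.9%; between libraries it was 13.7% in KO and 11.2% in WT. For Ncor1, with 1053 counts, counting error was 3.08%, and the observed values were 4.71% in KO and 3.83% in WT.

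Med1 (ENSMUSG00000018160, chr11:98152154-98193293, minus strand, mm10) encodes the Mediator subunit that receptors bind. It had 31.95, 35.6 and 31.4 CPM in KO replicates 1, 2 and 3, against 39.9, 37.3 and 32.7 CPM in WT replicates 1, 2 and 3. KO replicate 2 was above WT replicate 3, and the log2 difference was -0.15 ± 0.10 (SE), with a 95% interval from -0.36 to 0.06 and an adjusted p of 0.989 in edgeR's test. Without WT replicate 1 it was -0.08.

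**Figure D4:**
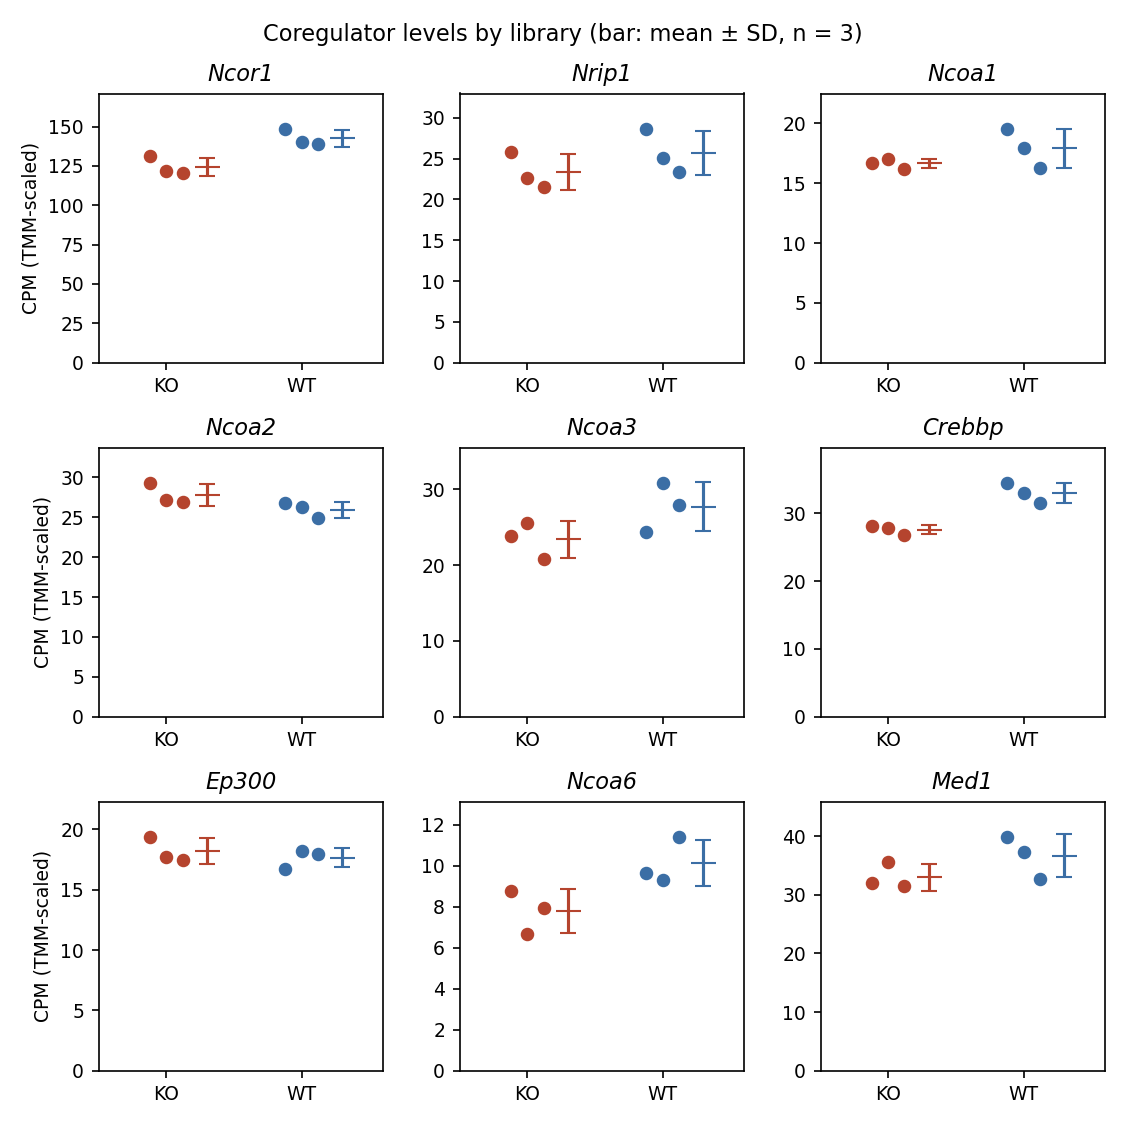
TMM-scaled CPM of the 9 coregulator genes in each library, KO left and WT right, with the mean and SD (n = 3 each) beside the points and each axis starting at 0. KO and WT points are separate for Ncor1, Crebbp and Ncoa6 (KO below) and for Ncoa2 (KO above), and overlap for the other 5 genes.

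Summed over the 9 genes, libraries held 315, 302 and 289.6 CPM in KO replicates 1, 2 and 3, against 348.9, 338 and 325 CPM in WT replicates 1, 2 and 3, a sum in which Ncor1 weighs most. Across the 6 libraries, 26 of the 36 pairs had a positive Pearson correlation of log2 CPM and 10 a negative one, with a median of 0.317, as a description of libraries that share genotype and scaling. All 10 negative pairs included Ncoa2 or Ep300, the genes at higher levels in KO, and the 21 pairs among the other 7 genes were all positive (0.053 to 0.958). This split by direction comes from the same libraries, so these signs in part restate the difference between genotypes. Crebbp and Ncor1 were the most alike (0.958), followed by Med1 and Ncoa1 (0.942), and Med1 and Ep300 the least (-0.554). Genes outside the set whose log2 CPM was most like the mean standardised profile of the 9, among 7428 genes of at least 10 CPM, were Wapal (Pearson r 0.984), Atf7ip (0.983), Nhlrc2 (0.981), Pip4k2b (0.980) and Vezf1 (0.976). With 6 points and 7428 genes such values describe these libraries only.

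Directions differed between the lists of partners of the 9 coregulators, and 0 genes of any list passed the test in either direction. Of the NCoR complex, 5 of 6 partner genes were tested; 2 were higher and 3 lower in KO, and their median log2 difference was -0.01. Their smallest unadjusted p belonged to Tbl1xr1, which helps exchange that complex for coactivators, at 61.5 ± 4.08 CPM in KO and 66.1 ± 5.03 CPM in WT, followed by the subunit Gps2 at 10.07 ± 0.915 CPM in KO and 10.5 ± 0.264 CPM in WT (SD, n = 3 each). Of 12 other corepressors tested, 9 were higher in KO and 3 lower, and their median was 0.07. Ctbp1, a corepressor that binds RIP140 among others, was at 83.0, 85.5 and 91.1 CPM in KO libraries and 75.7, 78.6 and 78.3 CPM in WT libraries, all KO above all WT. Its log2 difference was 0.16 ± 0.08 (SE, adjusted p = 0.989 in edgeR's test). Of the 12 genes, 2 had all KO above all WT, Ctbp1 and Rcor1, where 4.96% of all genes did so. For Rcor1 the log2 difference was 0.27 (adjusted p = 0.989 in edgeR's test). All KO lay below all WT for 0 of the 12, where 5.45% of all genes did so. Lcor, a ligand-dependent corepressor, was at 23.3 ± 1.61 CPM in KO and 27.1 ± 2.85 CPM in WT.

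Other coactivators and enzymes that work with the p160 proteins were all tested: 6 of 14 were higher in KO and 8 lower, and their median was -0.04. Ppargc1b and Ppargc1a, which encode PGC-1 coactivators of oxidative metabolism, had the smallest p of this list. The related gene Pprc1 went the other way, with a log2 difference of 0.28, the highest of the list, and overlapping groups. Ppargc1b was at 5.21, 4.95 and 5.57 CPM in KO libraries and 8.04, 6.02 and 7.86 CPM in WT libraries (log2 difference -0.48 ± 0.19 SE, adjusted p = 0.989 in edgeR's test). Ppargc1a was at 58.9, 65.1 and 32.7 CPM in KO libraries and 75.5, 78.8 and 77.7 CPM in WT libraries. Ppargc1b and Ppargc1a had all KO below all WT, where 5.45% of all genes did so, and for Ppargc1a KO replicate 3 stood far below the other libraries.

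The rest of the Mediator complex showed no common direction. Of its 32 other genes, all tested, 16 were higher in KO and 16 lower, and the median was 0.0045; 3 lay below WT and 3 above WT without overlap, where 5.45% and 4.96% of all genes did so. Med14, the backbone subunit, was at 23.9 ± 1.23 CPM in KO and 27.9 ± 1.02 CPM in WT, and Med11, of the head module, at 2.22 ± 0.157 CPM in KO and 1.36 ± 0.258 CPM in WT (SD, n = 3 each), with 17 to 20 counts per KO library and 8 to 12 per WT library. The methyltransferase complexes that hold Ncoa6 had 9 genes, 7 of them lower in KO and 2 higher, and a median of -0.08. Of these, Kmt2d, a histone H3 methyltransferase, was at 25.3 ± 1.05 CPM in KO and 28.0 ± 2.96 CPM in WT, and Pagr1a at 5.60 ± 0.669 CPM in KO and 4.38 ± 1.41 CPM in WT. Of 24 other nuclear receptors 22 were tested; 11 were higher in KO and 11 lower, around a median of -0.0079. Rora, the orphan receptor ROR alpha, was at 73.7 ± 4.63 CPM in KO and 86.1 ± 3.01 CPM in WT, and Nr1h3, the oxysterol receptor LXR alpha, at 11.9 ± 0.882 CPM in KO and 9.43 ± 0.434 CPM in WT (SD, n = 3 each), each without overlap and with an adjusted p of 0.989 in edgeR's test.

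**Figure D5:**
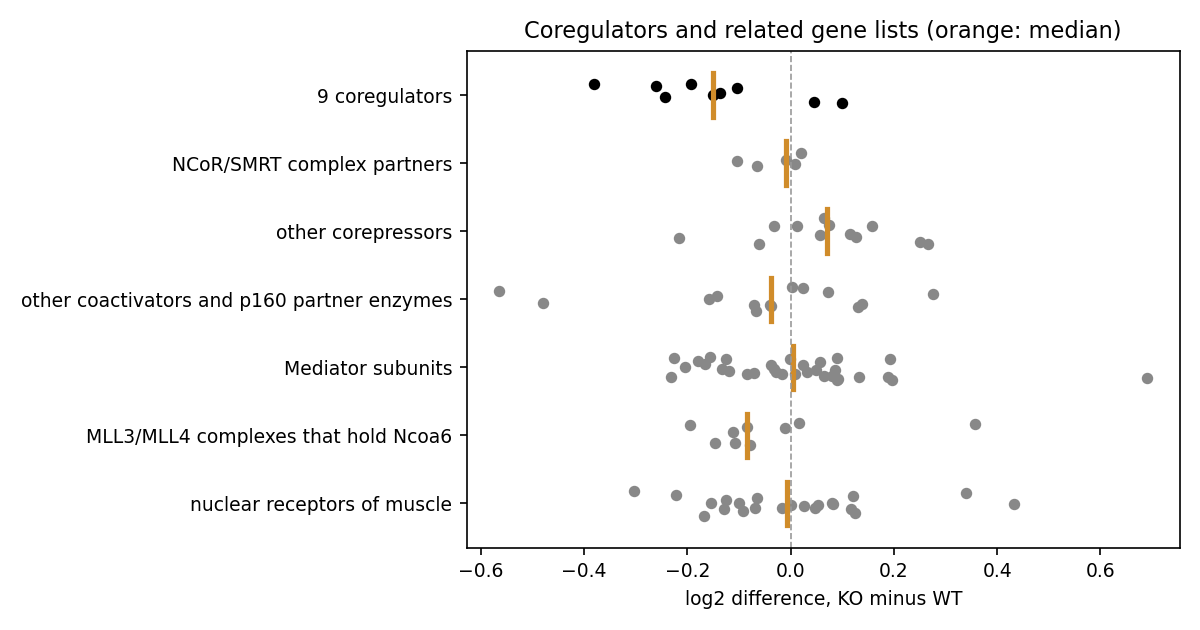
Log2 differences, KO minus WT, of the 9 coregulator genes (black) and of 6 lists of related genes (grey), with 1 point per gene and the median in orange. The 9 genes have a median of -0.15 and the medians of the lists run from -0.08 to 0.07.

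The authors' deposited table gives its own comparison, in which 5 genes pass an adjusted p of 0.05, none of the 9 coregulators among them. In the authors' deposited table the log2 fold change of Crebbp was -0.24 with a p of 0.0442, that of Ncoa6 -0.37 with 0.0462, and that of Ncor1 -0.18 with 0.0570. In the authors' deposited table the adjusted p of each of the 9 genes was 1.0.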

How the data were processed

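RNA was sequenced from 3 KO and 3 WT quadriceps samples; per the labels' protocols it was extracted with Trizol and made into libraries with the Illumina TruSeq kit. The submitters' processing notes name TopHat 1.3.3, edgeR and build mm10, with no role or order. How reads were counted, on which annotation, and what was done with multi-mapped reads is not given in the sources used. The authors deposited whole-number counts per gene, not normalized. Per the file headers, the authors also deposited a log2 fold change, a log2 mean abundance and p-values per gene, raw and adjusted; the mean abundance was not used. Repeated rows (29, with identical counts) were merged, leaving 37477 genes.

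Coordinates, exonic lengths and overlaps came from GENCODE M21 (GRCm38, the assembly mm10 names). Exons of other genes overlap at most 1.95% of the exonic bases of any of the 9 genes. Genes were filtered with filterByExpr, scaled by TMM (factors 0.968 to 1.04) and tested two-sided on genotype with the robust quasi-likelihood F-test of edgeR 4.0.16 in R 4.3.3, at a Benjamini-Hochberg adjusted p of 0.05 over all genes tested. The standard error was the log2 difference divided by the square root of F. Replicate pairs differed by more than sampling noise (chi-square per gene 3.46 to 9.57), so all 6 libraries were counted separately. Total counts of 7388365 to 8560244 give the 9 genes 55 to 1110 counts each per library.

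The 9 genes, the lists of related genes and the tests were chosen with earlier results of these data known. Named were the 9 genes, Esr1, from each list the 2 genes lowest in unadjusted p, and the 5 genes of at least 10 CPM most like the 9 by Pearson correlation. Pprc1 and Rcor1 were named outside this rule, after the values were seen. Alternatives were other scaling (RLE, upper-quartile, none), other filters (none, or 1 CPM in 3 libraries), other tools (limma voom 3.58.1 and DESeq2 1.42.0), a replicate block, exonic-length offsets, leaving out each library, the authors' comparison, and lengths of longest transcripts.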

Additional observations from a re-analysis of the deposited data

How the results depend on the processing

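None of the 9 coregulators passed an adjusted p of 0.05 under any of the 16 alternatives run for each. Of 144 such values, 143 kept their direction; the exception was Ep300, with a log2 difference of -0.0031 without KO replicate 1 in place of 0.05, so that 8 genes were then lower in KO; leaving out 1 library at a time gave it -0.0031 to 0.0758. The median of the 9 ran from -0.22 to -0.08 when 1 library was left out (-0.08 without WT replicate 1) and was -0.11 with exonic-length offsets. Of the 9 genes, 4 had an unadjusted p under 0.05 in the fit described. In the other edgeR fits run here on all libraries and in limma voom, 3 or 4 had one, apart from 1 with exonic-length offsets. In DESeq2 0 had one, and 1 to 3 had one when 1 library was left out. In the authors' deposited comparison only Crebbp and Ncoa6 had one. The number of genes called over the whole table was 0 in the fit described and 19 with no filter beyond 1 read, 2 in DESeq2, 1 in limma voom and 5 in the authors' deposited comparison; it was 0 to 3 when 1 library was left out, with 3 without WT replicate 1. The cause was not tested. Per kb of longest transcript, mean CPM was 14.8 for Ncor1, 2.80 for Crebbp, 3.11 for Nrip1, 2.36 for Ncoa1, 3.29 for Ncoa2, 1.87 for Ep300 and 1.26 for Ncoa6; these are higher because that length is shorter than all annotated exons together.

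Nothing in the labels says that replicate numbers pair the libraries. Deviations of same-numbered KO and WT libraries from their group means correlated at -0.00101, 0.263 and -0.0331 over 7599 genes. Of the 3 numbers, 1 matched best with its own. With 3 libraries per group, such correlations cannot decide whether the numbers pair libraries. With the replicate number as a block 0 genes were called and the median of the 9 was -0.15. Depth limits the genes with few counts most: for Ncoa6, at 55 to 90 counts per library, the 95% interval reached from 0.605 to 0.975 of the WT level.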
